A study of Mus musculus with 4 samples.

Results

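The ADAR family of RNA editing enzyme genes was taken as 3 mouse genes, Adar, Adarb1 and Adarb2, and each was read by 1 probeset, the set of array probes that reads a transcript, among 22180 genes with a single-gene probeset. The family was named beforehand, and the probeset of each member was the one that the platform annotation pairs with that gene alone. Among probesets of 1 gene, members were to be chosen by their mean level over the 4 arrays, and no member had a further probeset to choose between. The family was proposed with earlier results of these arrays known, so its difference between the groups is given as a description with the fit over all genes beside it, not as independent evidence.

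Islets, small clusters of endocrine cells in the pancreas, came from GPR41 transgenic mice (Tg, labelled 41 Tg) and from wild-type littermates (WT), all C57BL/6 and aged 5 to 6 months. Each group had 2 arrays, titled biological replicates, and the labels do not say whether an array holds islets of 1 mouse or of several. Both groups were kept in RPMI medium before RNA was purified, and no other treatment is named. GPR41 is a receptor for short-chain fatty acids encoded by Ffar3, and the labels give neither the promoter nor the number of founder lines of the transgene. Islets were compared in bulk, so fewer cells of a type and less RNA per cell cannot be told apart.

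ADAR enzymes convert adenosine to inosine in double-stranded RNA, and inosine is read as guanosine by the ribosome. Adar encodes ADAR1, which edits long duplexes formed by repeats and keeps them from the cytoplasmic sensor MDA5; its long form is induced by interferon. Adarb1 encodes ADAR2, which recodes transcripts of ion channels and receptors, Gria2 above all, and which in rat beta cell lines has been tied to regulated exocytosis. Adarb2 encodes ADAR3, a protein found mainly in brain that binds RNA but has shown no deaminase activity of its own. The arrays measured transcript levels and not editing, and 1 probeset per gene does not separate the interferon-induced and constitutive forms of Adar.

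The stretch of DNA before Adarb2 is shown because Adarb2 was the member whose transcript differed. It covers the 250 bases before the annotated start, chr13:8202616-8202865 on the plus strand of GRCm38.p6, from RefSeq. Capitals mark the homeodomain core TAATTA and 2 CCAAT boxes, which lie on the reverse strand and so read ATTGG.
Adarb2 upstream: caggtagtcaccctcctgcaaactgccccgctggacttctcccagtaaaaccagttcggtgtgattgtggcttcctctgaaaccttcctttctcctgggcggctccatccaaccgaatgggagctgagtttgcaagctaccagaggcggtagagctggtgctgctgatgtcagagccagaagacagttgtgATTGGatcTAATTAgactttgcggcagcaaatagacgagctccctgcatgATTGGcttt

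In all, 6 motifs were searched on both strands of the 300-base windows around the starts, and those letters are a description and not a binding site. TAATTA was in 5.29% and CCAAT in 37.4% of all 32851 RefSeq windows of that length. The window of Adarb2 held none of the letters of the STAT core TTCNNNGAA, the cAMP response element TGACGTCA, the interferon element GAAANNGAA or the TATA box TATAAA. These were in 8.30%, 1.79%, 8.56% and 13.6% of all windows, in that order. The 1 window of Adarb1 held none of the 6 motifs.

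Adar has 3 annotated starts, and the interferon element is shown because the long form of ADAR1 answers to interferon. Its letters GAAANNGAA, a form chosen after the sequence was seen, were in 1 of the 3 windows, that of the most downstream start, at 2 places. The place just after that start lies in chr3:89730738-89730767 on the plus strand of GRCm38.p6, from RefSeq, and is in capitals. The same window held the STAT core, which does not overlap with it.
Adar downstream start: ttttcaaggaaacGAAAGTGAActctgggg

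Adarb2 was the member that differed between the groups. Its log2 level was 8.27 and 8.20 in Tg islets, against 5.40 and 5.40 in WT islets. Both Tg arrays lay far above both WT arrays, and the arrays within each group were close together, with means of 8.23 ± 0.051 in Tg and 5.40 ± 0.0022 in WT (SD, n = 2 each). The closest pair across the groups was 2.79 log2 units apart.

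The fitted difference, Tg minus WT, was 2.83 log2 units (SE 0.10, 95% confidence interval 2.58 to 3.08), a 7.11-fold higher level in Tg with an interval of 5.97 to 8.47. In the limma fit over 22180 genes, with Benjamini-Hochberg adjustment, its adjusted p was 0.00096. In all, 199 genes, or 0.897% of those tested, passed an adjusted p under 0.05, and 149 of them, 0.672%, were higher in Tg. Adarb2 had the 5th smallest p of all genes and the 23rd largest increase. An exact permutation test of 2 arrays against 2 gave p = 0.333, two-sided, the smallest it can give. Without variance moderation the difference was the same and the adjusted p was 0.363.

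**Figure D1:**
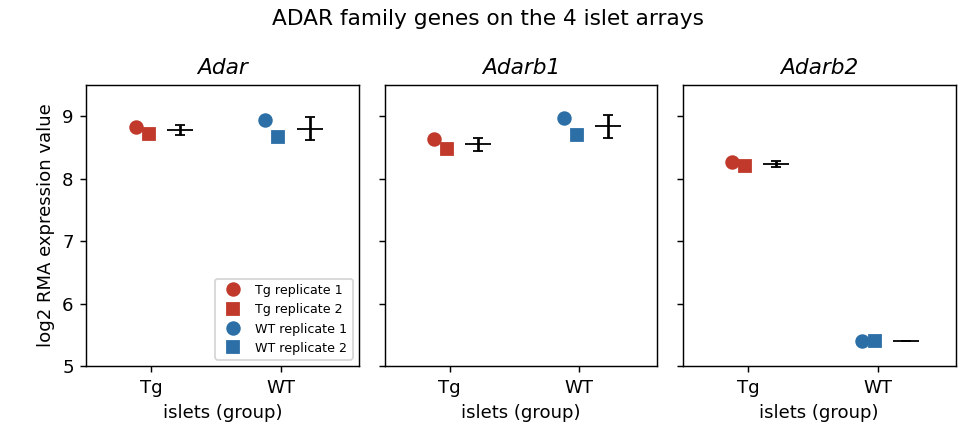
Log2 RMA expression values of Adar, Adarb1 and Adarb2 on each array (vertical axis), with Tg left of WT; circles are replicate 1, squares replicate 2, and the black marks give the mean and SD of 2 arrays. Adarb2 stood at 8.27 and 8.20 in Tg and at 5.40 on both WT arrays, while the Tg and WT values of Adar overlapped.

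Where the low WT level lay on the arrays was read against 1105 olfactory receptor genes, whose products are known from the nose, a reference chosen after the values were seen. Adarb2 was above 99.9% and 99.8% of them on the Tg arrays, against 90.7% and 90.1% on the WT arrays. The 95th percentile of the olfactory receptor genes was 5.85 and 5.83 on the Tg arrays and 5.80 and 5.90 on the WT arrays. The WT values of Adarb2 were below that percentile and the Tg values above it. The files give no detection call, so whether WT islets held any Adarb2 transcript was not settled, and a fold against such a low level is uncertain in size.

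Adar, the interferon-inducible editor, had log2 levels of 8.83 and 8.72 in Tg islets, against 8.93 and 8.67 in WT islets. The groups overlapped, with both Tg arrays between the WT arrays. The difference was -0.03 (SE 0.13, limma adjusted p = 0.973), and its 95% confidence interval of -0.35 to 0.30 leaves room for a 1.23-fold higher or a 0.785-fold level in Tg. The sign of this small difference turned with the setting, at 0.012 after quantile normalisation once more and 0.030 and 0.11 without Tg replicate 2 and without WT replicate 1.

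Adarb1, the editor of neuronal and endocrine receptor transcripts, had log2 levels of 8.63 and 8.48 in Tg islets, against 8.97 and 8.70 in WT islets. Both Tg arrays were below both WT arrays, as in 23.7% of all genes, and by 0.08 at the closest pair. The difference was -0.28 (SE 0.13, 95% confidence interval -0.61 to 0.05, limma adjusted p = 0.494), and it did not pass the test. It was -0.15 without WT replicate 1 and -0.42 without WT replicate 2. Whether the change of Adarb2 differed from those of Adar and Adarb1 was not tested, but the interval of Adarb2 did not overlap with either.

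**Figure D2:**
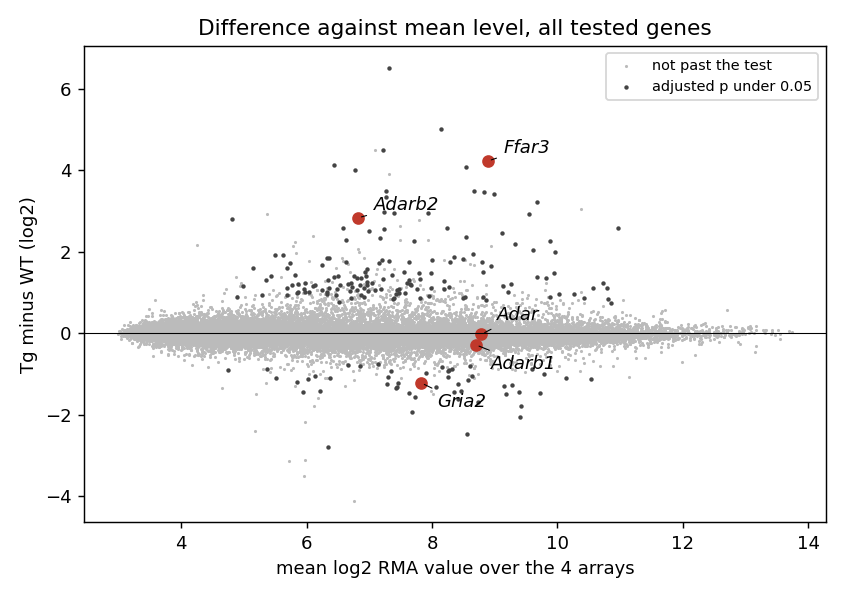
Tg minus WT difference in log2 units (vertical axis) against the mean log2 value over the 4 arrays (horizontal axis) for all 22180 genes, grey where not past the test and black where the adjusted p was under 0.05; red points are named. Adarb2 lay at a difference of 2.83, Ffar3 at 4.22 and Gria2 at -1.22, and Adar and Adarb1 lay in the grey band.

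The transgene's own gene Ffar3 was at 11.02 and 10.98 on the Tg arrays and at 7.09 and 6.47 on the WT arrays, as the labels say. Hormone genes marked the tissue, with Ins2 at 12.52 and 12.59 in Tg and 12.57 and 12.46 in WT. Of 12 beta cell markers, 5 differences were above 0 and 7 below, beside 45.7% of all genes above 0. Their median was -0.06, and limma called 0 of them. At an unadjusted p under 0.05, 0 were higher and 2 lower, Ucn3 (-0.60) and Slc30a8 (-0.33), beside 11.8% of all genes. Of 7 delta, PP and epsilon cell markers, 3 were above 0 and 4 below, with a median of -0.32 and 0 called. Pearson's r over all probesets was 0.994 between the Tg arrays, 0.991 between the WT arrays and 0.986 to 0.987 across the groups.

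Among the genes whose 4 values, each centred on its own mean, lay nearest to those of Adarb2, the nearest were Rasgrp1, a Ras exchange factor, Tnfrsf11b, the decoy receptor osteoprotegerin, and Kcnj5, an inwardly rectifying potassium channel. Their root mean square distances from Adarb2 were 0.092, 0.10 and 0.11 log2 units over the 4 arrays. Rasgrp1 had log2 levels of 9.00 and 8.72 in Tg against 5.94 and 5.90 in WT. Kcnj5 had 8.43 and 8.07 in Tg against 5.32 and 5.41 in WT, and Tnfrsf11b had 11.08 and 10.94 in Tg against 8.20 and 7.95 in WT. All 3 separated the groups as Adarb2 did, which is what the measure selects for.

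The genes compared had a mean above the median of all genes, 6.53, and symbols not of the Gm, Rik, LOC, Olfr, Vmn or Mir kinds. Rasgrp1 and Kcnj5 were below that median in WT and passed it through their Tg arrays. Of 10485 genes compared, 6 lay within 0.2 log2 units of Adarb2, against 8238 for Adar and 6431 for Adarb1. Among the genes so filtered, a small distance therefore picks out few for Adarb2 and most for the other members. The nearest to Adar were Creb3l2, Tomm34 and Kdelr1, at distances of 0.0062, 0.0066 and 0.0076. The nearest to Adarb1 were Frg1, Peg3 and Maml3, at 0.0078, 0.011 and 0.011.

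The position of the members was examined after their values were seen, through the 5 nearest measured genes on each side in the GRCm38 gene order. Around Adarb2, 0 of 10 neighbours passed the limma test over all genes and 0 had an unadjusted p under 0.05, beside 11.8% of all genes at that threshold. Their differences lay between -0.22 and 0.30, with a smallest limma adjusted p of 0.452. Of the 10, 8 were above 0, beside 45.7% of all genes. The groups did not overlap for Pfkp, Gm10029 and Wdr37, higher in Tg, beside 18.6% of all genes. Nor did they for Idi2 and Dip2c, lower in Tg, beside 23.7%. The gene on one side, Gm10029, was at 6.30 and 6.65 in Tg and 6.22 and 6.18 in WT. The gene on the other side, Wdr37, was at 8.41 and 8.46 in Tg and 8.29 and 8.25 in WT. No measured neighbour differed by nearly as much as Adarb2.

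Around Adar, 0 of 10 neighbours passed and 2 had an unadjusted p under 0.05. Around Adarb1, 0 of 10 passed and 1 had such a p. Counts of this size are near the 11.8% of all genes. Of the 2 near Adar, the potassium channel gene Kcnn3 was next to it and at 8.46 and 8.27 in Tg against 8.99 and 8.81 in WT (difference -0.54, SE 0.13, limma adjusted p = 0.177). The other, 4632404H12Rik, had a difference of -0.46. Itgb2, a leukocyte integrin gene and the 1 near Adarb1, was at 8.26 and 7.97 in Tg against 7.34 and 7.55 in WT (difference 0.67, SE 0.15, limma adjusted p = 0.145).

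**Figure D3:**
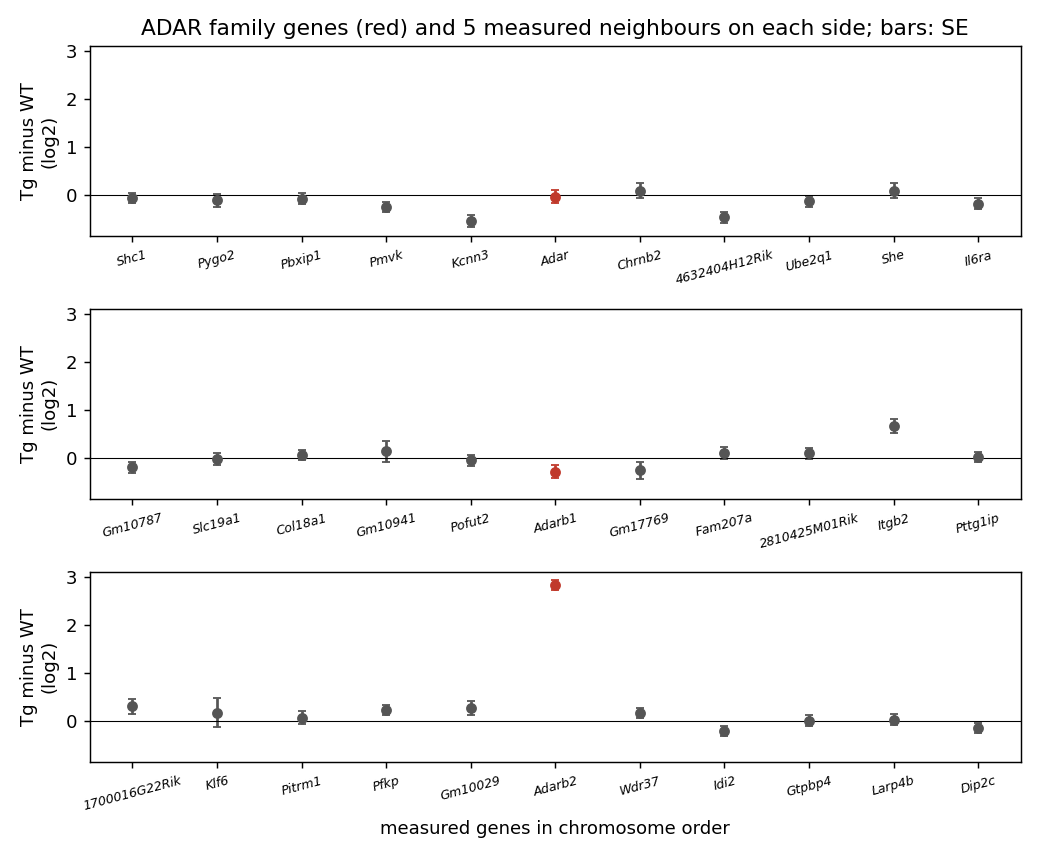
Tg minus WT difference in log2 units (vertical axes) with its SE for each ADAR family gene (red) and the 5 measured genes on either side in chromosome order (grey). Adarb2 stood at 2.83 among neighbours between -0.22 and 0.30.

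Of 25 measured transcripts that ADARs are known to recode, 1 passed the test. With 2 arrays per group, not passing does not show that a level was unchanged. Gria2, the AMPA receptor subunit whose calcium permeability is set by editing, had log2 levels of 7.42 and 7.01 in Tg islets, against 8.47 and 8.39 in WT islets. Both Tg arrays were below both WT arrays. The level was 2.32-fold lower in Tg (difference -1.22, SE 0.16, limma adjusted p = 0.041), where 0.225% of all genes passed as lower. The call was lost with each array left out in turn (adjusted p 0.087 to 0.126) with the replicate block (0.141) and without variance moderation (0.543), and the sign stayed.

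Gria3, a further AMPA receptor subunit, had log2 levels of 7.48 and 7.83 in Tg, against 8.54 and 8.62 in WT. Its groups did not overlap, and its difference of -0.92 (SE 0.15) had a limma adjusted p of 0.068. Blcap, a small membrane protein edited in many tissues, was at 6.09 and 5.99 in Tg and at 6.38 and 6.52 in WT (difference -0.41, SE 0.11). Neither passed over all genes.

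Other substrates did not pass the test. Over all 25, Gria2 included, 1 was higher and 4 were lower at an unadjusted p under 0.05, beside 11.8% of all genes. The higher one, the GABA receptor subunit gene Gabra3, is outside the naming rule and was picked after its values were seen. It was at 4.53 and 4.73 in Tg and at 4.19 and 4.27 in WT, a difference of 0.40 (SE 0.12, limma adjusted p = 0.277). On every array Gabra3 was below the 95th percentile of the olfactory receptor genes. So were the substrates Gria4, Grik1, Grik2, Htr2c, Kcna1 and Bcan. Differences at so low a level are uncertain in size. Cyfip2, a regulator of actin assembly, was at 11.87 and 11.78 in Tg and at 11.94 and 11.82 in WT. Cacna1d, a calcium channel of beta cells, was at 9.41 and 9.24 in Tg and at 9.71 and 9.45 in WT, a difference of -0.25. Azin1, an inhibitor of antizyme, had a difference of -0.08. Flna, an actin crosslinker, was at 9.46 and 9.02 in Tg and at 8.73 and 10.10 in WT, so its WT arrays stood apart (difference -0.18, SE 0.43).

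As a list, 18 of the 25 substrates had a difference below 0, with a median of -0.14, beside a median of -0.02 over all genes. The groups did not overlap for 11 substrates, 44.0%, against 42.3% of all genes. The median was -0.0080 without Tg replicate 2 and -0.079 without WT replicate 1.

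**Figure D4:**
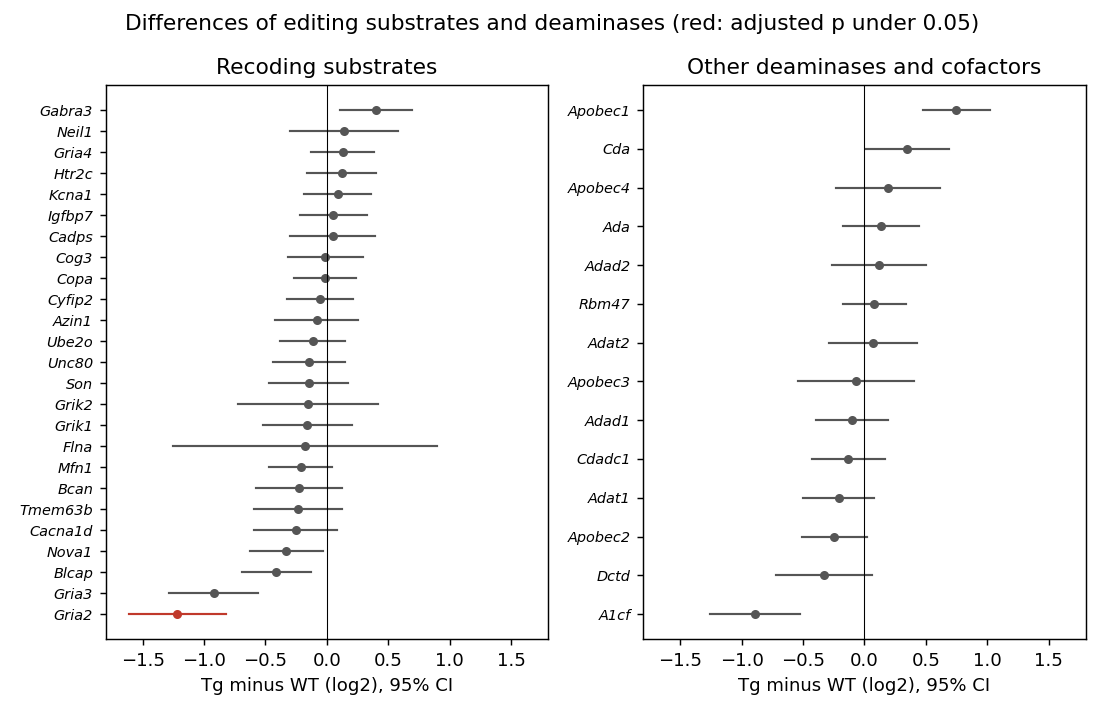
Tg minus WT difference in log2 units (horizontal axes) with its 95% confidence interval for each measured recoding substrate (left) and each other deaminase or cofactor (right); red marks an adjusted p under 0.05. Gria2 at -1.22 was the 1 gene past the test in either panel. The deaminase Apobec1 at 0.75 and its cofactor A1cf at -0.89 had the largest differences in the right panel.

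The other deaminases and their cofactors gave no call over all genes by limma, 0 of 14. Of these, 2 were higher and 1, the cofactor A1cf, was lower at an unadjusted p under 0.05, beside 11.8% of all genes. The median difference was 0.0018. It was -0.068 without WT replicate 1, -0.040 without Tg replicate 1 and 0.025 without WT replicate 2, so its sign turned. Apobec1, which edits cytidine in apolipoprotein B mRNA, had log2 levels of 10.88 and 10.72 in Tg, against 10.07 and 10.03 in WT. Its groups did not overlap (difference 0.75, SE 0.11, limma adjusted p = 0.058). A1cf, an RNA-binding cofactor of Apobec1, was at 8.89 and 8.88 in Tg and at 9.96 and 9.59 in WT, in the opposite direction (difference -0.89, SE 0.15, limma adjusted p = 0.077). With a variance trend, both passed, at adjusted p = 0.023 for Apobec1 and 0.045 for A1cf. Neither passed with the replicate block (limma adjusted p = 0.196 and 0.21) or in the ordinary linear model without variance moderation (0.512 and 0.568). With each array left out, the difference was 0.67 to 0.83 for Apobec1 and -1.07 to -0.71 for A1cf.

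Cda, which deaminates free cytidine, had a difference of 0.35 (SE 0.14). The tRNA editors Adat1 and Adat2 had differences of -0.21 (SE 0.12) and 0.07 (SE 0.14). Apobec3, which restricts retroviruses, had one of -0.07 (SE 0.19). None of these passed. Adat3 shared its probeset with Scamp4, at 8.37 and 8.46 in Tg and 8.66 and 8.42 in WT.

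Genes of double-stranded RNA sensing, a process that ADAR1 holds in check, were not called over all genes by limma, 0 of 18. There were 6 higher and 1 lower at an unadjusted p under 0.05, beside 11.8% of all genes. Besides sensors, the list held adaptors and effectors, with Ripk3 and Mlkl among the 6 that were higher. Zbp1, which binds left-handed RNA duplexes and starts necroptosis, was at 7.03 and 7.99 in Tg and at 6.37 and 6.25 in WT (difference 1.21, SE 0.30, limma adjusted p = 0.202). Mlkl, the executioner of necroptosis, was at 8.18 and 8.21 in Tg and at 7.36 and 7.66 in WT (difference 0.68, SE 0.13). Oasl2, of the oligoadenylate synthetase family, was at 9.73 on both Tg arrays and at 9.22 and 8.77 in WT. None of the 3 passed. Over the list, the groups did not overlap for 8 genes in the higher and 3 in the lower direction, 61.1%. Of all genes, 42.3% did not overlap, and 18.6% in the higher direction.

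Ifih1, which encodes MDA5, went the other way, with log2 levels of 8.72 and 8.72 in Tg against 9.08 and 9.00 in WT (difference -0.32, SE 0.10, limma adjusted p = 0.309). Eif2ak2, the kinase PKR, had a difference of -0.04 (SE 0.14). The median of the list of double-stranded RNA sensing was 0.15. It was 0.062 without WT replicate 2, 0.26 without WT replicate 1, 0.086 without Tg replicate 1 and 0.074 among genes above the median level.

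Genes of interferon signalling were also not called by limma, 0 of 25, although 21 had a difference above 0, beside 45.7% of all genes. At an unadjusted p under 0.05, 7 were higher and 1 was lower, beside 11.8% of all genes. The groups did not overlap for 17 members in the higher and 4 in the lower direction. Of all genes, 18.6% and 23.7% did so. The 4 lower members were Tyk2 (-0.24), Irf1 (-0.27), Ifi44l (-0.33) and Cmpk2 (-0.17). Ifit1, an interferon-induced RNA-binding protein, was at 9.42 and 9.66 in Tg and at 9.00 and 8.77 in WT (difference 0.66, SE 0.14, limma adjusted p = 0.139). Ifit3 (0.49), Usp18 (0.54), Isg15 (0.51) and Irf7 (0.38) had differences of like size, and none passed. Isg15 on the WT arrays and Ifi44l on every array were below the 95th percentile of the olfactory receptor genes. The list median was 0.22, and 0.14 without WT replicate 2, while Adar, itself an interferon target, differed by -0.03.

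Partners and regulators of ADARs gave 0 of 27 calls by limma, beside 0.897% of all genes. At an unadjusted p under 0.05 there were 0, beside 11.8% of all genes. Of the differences, 24 were below 0 and 3 above, beside 45.7% of all genes above 0. Their median was -0.08, beside -0.02 over all genes. The groups did not overlap for 2 members in the higher and 12 in the lower direction, 51.9%, beside 42.3% of all genes. The largest differences of the list were small. Kpna1, a nuclear import receptor, had a difference of -0.25 (SE 0.11), Sfpq, a nuclear RNA-binding protein, one of -0.27 (SE 0.14), and Stau1, a binder of double-stranded RNA, one of -0.21 (SE 0.11). The median was -0.12 without WT replicate 2.

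**Figure D5:**
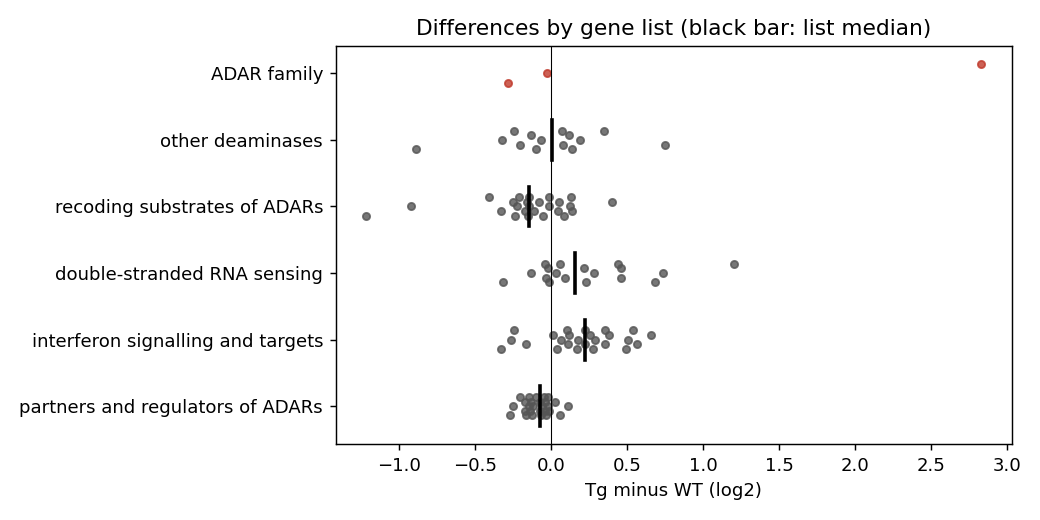
Tg minus WT difference in log2 units (horizontal axis) of each measured gene, by list, with the 3 ADAR family genes in red at the top; black bars give list medians and the vertical scatter has no meaning. Adarb2 at 2.83 lay beyond each listed gene, the highest of which was Zbp1 at 1.21.

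Markers of several other cell types had differences in 1 direction, though most did not pass the test. Of all genes, 45.7% had a difference above 0. All 11 measured immune markers did, with a median of 0.90. Of these, 1, Coro1a, passed (difference 0.94, limma adjusted p = 0.031), beside 0.672% of all genes called higher. The mean level of the immune markers was 7.77 and 7.39 on the Tg arrays and 6.82 and 6.65 on the WT arrays. All 8 endothelial markers were above 0 (median 0.50), with mean levels of 8.94 and 8.62 in Tg and 8.41 and 8.22 in WT. All 8 mesenchymal markers were above 0 (median 0.18), with mean levels of 6.85 and 6.74 in Tg and 6.32 and 6.48 in WT. The largest difference was that of Dcn, 1.79. Col1a1 (0.10), Col1a2 (0.07), Col3a1 (0.07) and Lum (0.03) had small differences and overlapping groups. All 5 measured alpha cell markers were below 0 (median -0.51), with mean levels of 9.91 and 10.22 in Tg and 10.71 and 10.48 in WT. The groups did not overlap in the higher direction for 10 immune, 7 endothelial and 4 mesenchymal markers, beside 18.6% of all genes. They did not overlap in the lower direction for the 5 alpha cell markers, beside 23.7% of all genes. Limma called 0 of the endothelial, mesenchymal and alpha cell markers, beside 0.897% of all genes.

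Acinar and duct markers differed between the arrays of 1 group. The mean level of acinar markers was 10.55 and 10.26 in Tg and 9.90 and 10.78 in WT. That of duct markers was 8.01 and 7.69 in Tg and 6.68 and 8.47 in WT. Of 4 measured duct markers, 3 had a difference below 0, and 1, Cftr, passed as higher, beside 0.672% of all genes. Cftr was at 7.80 and 7.75 in Tg and at 5.13 and 5.83 in WT (difference 2.30, SE 0.23, limma adjusted p = 0.021).

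Neuronal markers, of the cells in which Adarb2 is best known, had 4 of 12 differences above 0, beside 45.7% of all genes, and a median of -0.07. Their mean level was 6.75 and 6.88 in Tg and 6.92 and 6.78 in WT, so the groups overlapped. Gad2, the GABA-synthesising enzyme that islet cells also make, had the largest difference among these markers, 0.95. At an unadjusted p under 0.05, 2 were higher, Gad2 and Nefm (0.52), and 2 lower, Gad1 and Syt1, beside 11.8% of all genes. Snap25 was brighter than 99.3% of all genes in these islets, so the list does not read neurons alone. Whether the share of neurons changed was not tested. Schwann cell and astrocyte markers had a median of 0.02, with mean levels of 5.70 and 5.66 in Tg and 5.64 and 5.67 in WT. Of 81 measured markers of all the cell types listed, 0 differed by as much as Adarb2, and the largest difference was 2.30, for the duct gene Cftr. The part of cell composition in the levels of Adarb2, Gria2 and the interferon genes was not tested.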

How the data were processed

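Total RNA of 2 Tg and 2 WT islet samples was hybridised to Affymetrix Mouse Gene 2.0 ST arrays. The deposited log2 values, 27037 probesets, were made with Partek and RMA (background correction, quantile normalisation, probeset summary), per the submitters' processing notes; versions and a genome build are not given in the sources used here. The platform annotation paired 23521 probesets with 1 gene symbol, and the brightest per gene over the 4 arrays was kept (22180 genes). The fit of Tg minus WT used limma 3.58.1 (lmFit, eBayes) under R 4.3.3. P-values were adjusted by Benjamini and Hochberg over all genes, with 2 residual and 3.76 prior degrees of freedom. The number of arrays limits the precision.

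The members and gene lists were chosen with earlier results of these data known. The naming rule took the members, their 3 nearest genes above the median level, listed genes past the threshold, the smallest p-values of each pathway list and a few set genes; chromosome neighbours and olfactory receptor genes were added afterwards. Of 121 entries in 5 pathway lists, 109 had a single-gene probeset. A gene named by the rule is not reported here. The fit was tested on simulated data of 22180 genes, where it recovered 64.3% of 2-fold and 97.5% of 4-fold changes. Of its calls there, 5.27% were false. The simulation changed 200 genes and drew its spreads from the prior of the same fit, with independent noise. Shifts shared by many genes within a group were left out, so it does not give the false share on these arrays. Replicate numbers were checked for pairing: replicate differences of the groups correlated at -0.0631 over genes, so numbers were not taken as pairs. Alternatives were the probeset rule, a level filter, further normalisation, variance models, the block, and each array left out.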

Additional observations from a re-analysis of the deposited data

How the results depend on the processing

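The difference of Adarb2 lay between 2.79 and 2.87 over 13 alternatives, a range set by the sets with an array left out. Each member had 1 probeset, so the probeset rules, level filter, variance models and block could not move its difference. Only further normalisation and leaving an array out could do so. With all 4 arrays, Adarb2 kept its call except in the ordinary linear model without moderation. There its difference was 2.83 at an adjusted p of 0.363. Its mean passed the level filter through the Tg arrays. With the replicate block the difference of Adarb2 was 2.83 (limma adjusted p = 0.031). Adarb1 had no call in any alternative (-0.42 to -0.15 with each array left out). Adar had none either, and its sign turned after quantile normalisation once more (0.012) and in 2 of the sets with an array left out, whose range was -0.16 to 0.11 (0.030 without Tg replicate 2). The cause was not tested. Against 199 genes past the threshold the count was 24 with the replicate block, 347 when a variance trend was joined to a robust prior, 0 for the ordinary model, and 38 to 135 for sets lacking an array, where fewer samples were fitted. Against 1 pathway gene there were 3 above the median level, 4 with a variance trend, 4 with a trend and robust prior, 0 without moderation, 0 with the replicate block and 0 with each array left out (0 to 0). The additional calls were of Gria3, Apobec1 and, with a trend, A1cf. Genes near the array's low end, Adarb2 in WT among them, give differences of uncertain size.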
